A study of Oryctolagus cuniculus with 24 samples.

Results

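The genes described here are those of sterol and fatty acid synthesis, the program that sterol regulatory element-binding proteins (SREBPs) are known for, in primary cultures of rabbit keratocytes, the cells that keep up the stroma of the cornea. Members were the rows of the gene count table whose name was on a list of 31 genes. Of these, 25 were found by name among 23428 genes, and all 25 passed the filter on low counts. Another 2, IDI1 and CYP51A1, were found only by gene number through RefSeq and are given apart from the counts of members. MVD, DHCR7, FASN and SCD are not analysed here.

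SREBPs are made as membrane proteins of the endoplasmic reticulum. When membrane sterols run low, their escort protein SCAP carries them to the Golgi, where cleavage frees the part that enters the nucleus and switches on genes of cholesterol and fatty acid synthesis. INSIG proteins hold the complex back when sterols are plentiful, so the target genes are a commonly used readout of the cell's sterol state.

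The study set 3 cultures of first-passage keratocytes on collagen-coated glass beside each other by bulk RNA sequencing, with 8 libraries each. TGF-β1 cultures (the myofibroblast condition) received serum-free medium with 5 ng/mL TGF-β1 on day 1 and again on day 3. FBS cultures (the fibroblast condition) received serum-free medium on day 1 and DMEM with 10% fetal bovine serum on day 3. Serum-free cultures (the keratocyte condition) received serum-free medium at both changes. All cultures ran for 6 days in total, so exposure to TGF-β1 began earlier than exposure to serum. The base medium of the FBS cultures also changed. The libraries carry numbers 5 to 8 and 9 to 12 in every condition. The serum-free libraries of these sets differ in the genes described, so conditions were compared within each set of 4 libraries a condition. What the numbers stand for is not stated, and nothing says that the libraries of a group came from separate animals or cultures. The p-values therefore measure only the spread between these libraries, which may be technical.

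Total counts ran from 15410285 to 20911192 with TGF-β1, from 15659561 to 22528261 with FBS and from 17151397 to 21540864 in serum-free medium. Summed over the 4 listed myofibroblast markers in the table, libraries 9 to 12 held 4219 to 4520 counts scaled to library size (CPM) with TGF-β1, 466 to 593 with FBS and 12.8 to 25.8 in serum-free medium. Libraries 5 to 8 held 5323 to 6295, 994 to 1143 and 43.9 to 50.2 CPM in the same order. By the test defined below, all 4 were called higher with TGF-β1 than in serum-free medium in both sets. For FBS, 3 were called higher and 1 lower in each set. The 7 keratocyte markers summed to 14837 to 16428 CPM with TGF-β1, 3996 to 4444 with FBS and 60871 to 64539 in serum-free medium in libraries 9 to 12. In libraries 5 to 8 they summed to 18718 to 25162, 2125 to 2210 and 68923 to 97384 CPM. Against serum-free medium, 1 was called higher and 6 lower with TGF-β1 in each set, and all 7 lower with FBS. TGF-β1 against FBS was higher for 4 and lower for 3 in libraries 9 to 12, and higher for 6 and lower for 1 in libraries 5 to 8. Each of 7 corneal epithelial markers, 1 of them at 0 in all libraries, and each of 5 immune markers averaged under 1 CPM, as did 4 of 5 adipocyte markers (1.39 to 5.46 CPM summed over the list). Other lists moved with the conditions. The 4 markers of corneal endothelium, none at 0, summed to 2343 to 2607 CPM with TGF-β1, 362 to 405 with FBS and 1184 to 1463 in serum-free medium in libraries 9 to 12, and to 2578 to 3245, 327 to 368 and 1379 to 1530 CPM in libraries 5 to 8. The 5 markers of vascular endothelium, 3 of them under 1 CPM on average, summed to 93.3 to 113 CPM with TGF-β1, 13.9 to 17.1 with FBS and 244 to 329 in serum-free medium in libraries 9 to 12, and to 52.3 to 59.5, 14.4 to 19.2 and 318 to 364 CPM in libraries 5 to 8. The 5 sebaceous and meibomian gland markers, 4 of them under 1 CPM on average, summed to 21.2 to 28.4 CPM with TGF-β1, 59.7 to 71.3 with FBS and 10.2 to 14.5 in serum-free medium in libraries 9 to 12, and to 19.3 to 26.9, 73.7 to 81.0 and 15.7 to 21.1 CPM in libraries 5 to 8. The part of these lists in the results was not tested. The 6 markers of cycling cells summed to 5.45 to 6.79 CPM with TGF-β1, 822 to 1077 with FBS and 3.23 to 7.75 in serum-free medium in libraries 9 to 12, and to 9.50 to 17.2, 1284 to 1461 and 21.3 to 49.6 CPM in libraries 5 to 8. FBS libraries 9 and 10 stood apart: the Spearman correlation, across genes, of gene length with the deviation from the FBS mean was -0.526 and -0.478 there, against 0.0199 and 0.0393 in FBS libraries 11 and 12. The same correlation, with deviations from each condition's own mean, was -0.254 to 0.0421 in TGF-β1 libraries 9 to 12 and -0.0638 to 0.247 in TGF-β1 libraries 5 to 8. In FBS libraries 5 to 8 it was 0.285 to 0.438, above every FBS library of 9 to 12. The part of gene length in the FBS results was not tested.

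TGF-β1 raised nearly the whole program in both sets of libraries, while FBS raised most of it in libraries 9 to 12 and moved members in both directions in libraries 5 to 8. With TGF-β1 against serum-free medium, 24 of 25 members rose and 0 fell in libraries 9 to 12, and 24 rose and 1 fell in libraries 5 to 8. Among all 14037 genes tested, 29.8% rose and 31.5% fell in libraries 9 to 12 (61.3% called in all), and 32.2% rose and 31.5% fell in libraries 5 to 8 (63.6% in all). The members' median log2 fold change with TGF-β1 was 2.27 in libraries 9 to 12 and 1.20 in libraries 5 to 8, against -0.04 and -0.02 over all genes. With FBS, 21 members rose and 3 fell in libraries 9 to 12 (38.9% and 40.2% of all genes, 79% in all), and 8 rose and 12 fell in libraries 5 to 8 (39.5% and 39.2% of all genes, 78.7% in all). The balance in libraries 5 to 8 depended on the scaling, with 13 members rising and 12 falling under total library sizes and 5 rising and 13 falling under DESeq2's size factors. The members' median with FBS was 1.14 in libraries 9 to 12 and -0.09 in libraries 5 to 8, against -0.06 and -0.03 over all genes. Without FBS libraries 9 and 10, a choice made after seeing the data, 21 still rose and 3 fell with FBS in libraries 9 to 12. A gene is said to rise or fall at an adjusted p under 0.05 by edgeR's quasi-likelihood test, with adjustment over all genes tested. In bulk RNA, fewer cells of a type and less RNA per cell cannot be told apart.

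**Figure D1:**
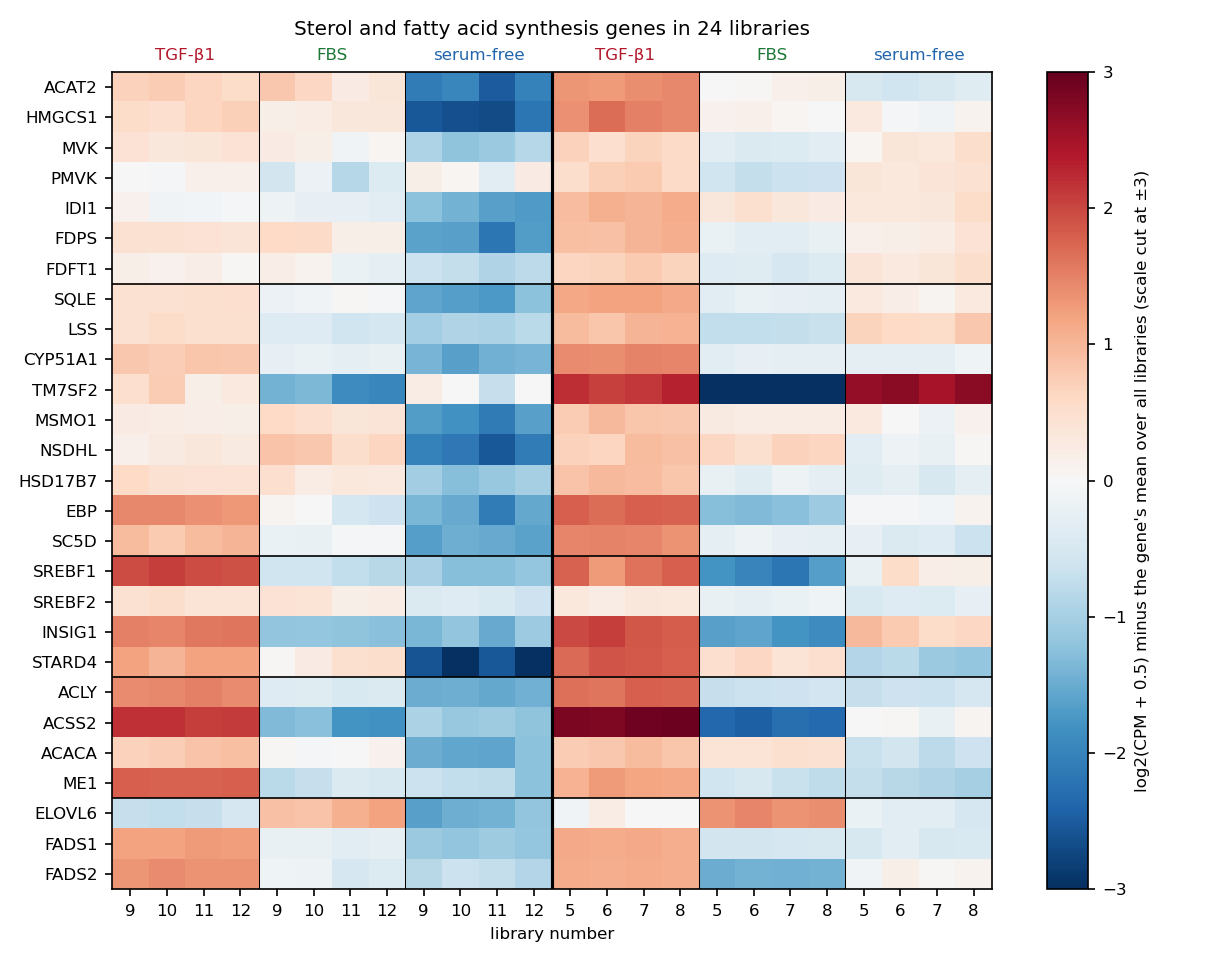
Colour shows log2(CPM + 0.5) of each gene in each of 24 libraries, minus the gene's mean over all libraries, with columns by library number and condition and rows by role. IDI1 and CYP51A1 were found by gene number. The TGF-β1 columns are mostly red in both sets, and the serum-free columns of libraries 9 to 12 are mostly blue.

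Summed over the 25 members, libraries 9 to 12 held 7503 to 7660 CPM with TGF-β1, 3542 to 3928 with FBS and 1546 to 1677 in serum-free medium. Libraries 5 to 8 held 9230 to 9545 CPM with TGF-β1, 3021 to 3058 with FBS and 3766 to 4188 in serum-free medium. By this sum FBS lay above serum-free in libraries 9 to 12 and below it in libraries 5 to 8, and TGF-β1 lay above both in each set. With TGF-β1, 23 members lay above serum-free in all 4 libraries of both conditions, and so without overlap, in libraries 9 to 12 (28.1% of all genes) and also 23 in libraries 5 to 8 (28.9% of all genes). Below serum-free without overlap lay 0 members in libraries 9 to 12 (29.2% of all genes) and 1 in libraries 5 to 8 (27.5% of all genes). With FBS, 20 lay above and 2 below without overlap in libraries 9 to 12 (34.5% and 34.9% of all genes), and 5 above and 12 below in libraries 5 to 8 (38% and 36.4% of all genes).

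Among the regulators and the sterol carrier, all 4 genes rose with TGF-β1 in both sets. Of all genes, 29.8% rose in libraries 9 to 12 and 32.2% in libraries 5 to 8. SREBF2 encodes the SREBP form tied mainly to sterol genes. SREBF2 stood at 473, 497, 460.4 and 458 CPM with TGF-β1, 467, 459, 388 and 405 CPM with FBS and 255, 264, 249.9 and 225 CPM in serum-free medium in libraries 9 to 12. SREBF2 in libraries 5 to 8 stood at 433, 403, 439.6 and 429 CPM with TGF-β1, 295, 281, 303 and 318 CPM with FBS and 254, 265, 259 and 290.01 CPM in serum-free medium. In each set every TGF-β1 library lay above every serum-free library, and the FBS libraries overlapped serum-free only in libraries 5 to 8. With TGF-β1, SREBF2 rose by 0.93 ± 0.07 in libraries 9 to 12 (edgeR adjusted p = 6.95e-12) and rose by 0.68 ± 0.07 in libraries 5 to 8 (adjusted p = 3.09e-09). With FBS, SREBF2 rose by 0.79 ± 0.07 in libraries 9 to 12 (edgeR adjusted p = 6.91e-11) and rose by 0.17 ± 0.07 in libraries 5 to 8 (adjusted p = 0.0316). The small FBS call in libraries 5 to 8 was lost without any of serum-free libraries 5, 6 or 7 or FBS libraries 7 or 8 (adjusted p = 0.0528 to 0.0873), and with DESeq2 (adjusted p = 0.0673). SREBF1 encodes the SREBP forms tied mainly to fatty acid genes. SREBF1 stood at 222, 243, 222 and 216 CPM with TGF-β1, 37.4, 37.4, 33.8 and 31.5 CPM with FBS and 28.9, 23.1, 22.98 and 25.2 CPM in serum-free medium in libraries 9 to 12. SREBF1 in libraries 5 to 8 stood at 195, 138, 176 and 197 CPM with TGF-β1, 16.00, 14.04, 12.4 and 17.6 CPM with FBS and 48.95, 83.5, 65.3 and 64.5 CPM in serum-free medium. FBS libraries lay just above serum-free in libraries 9 to 12 and well below it in libraries 5 to 8, without overlap in either. With TGF-β1, SREBF1 rose by 3.17 ± 0.14 in libraries 9 to 12 (edgeR adjusted p = 5.24e-17) and rose by 1.43 ± 0.13 in libraries 5 to 8 (adjusted p = 2.12e-10). With FBS, SREBF1 rose by 0.48 ± 0.13 in libraries 9 to 12 (edgeR adjusted p = 0.00186) and fell by 2.13 ± 0.14 in libraries 5 to 8 (adjusted p = 7.43e-14).

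INSIG1, an SREBP target that holds the SCAP and SREBP complex in the endoplasmic reticulum, was among the genes that set the treatments furthest apart. INSIG1 stood at 809, 784, 845 and 862 CPM with TGF-β1, 124, 126, 122 and 119 CPM with FBS and 109, 123, 98.4 and 131 CPM in serum-free medium in libraries 9 to 12. INSIG1 in libraries 5 to 8 stood at 1108, 1181, 1025 and 999 CPM with TGF-β1, 90.6, 93.2, 80.5 and 76.3 CPM with FBS and 549, 487, 409.8 and 437 CPM in serum-free medium. TGF-β1 libraries were the highest of each set, and FBS libraries overlapped serum-free in libraries 9 to 12 but lay below it in libraries 5 to 8. With TGF-β1, INSIG1 rose by 2.84 ± 0.10 in libraries 9 to 12 (edgeR adjusted p = 2.71e-19) and rose by 1.20 ± 0.09 in libraries 5 to 8 (adjusted p = 6.61e-12). With FBS, INSIG1 gave 0.09 ± 0.09, which was not called, in libraries 9 to 12 (edgeR adjusted p = 0.374) and fell by 2.47 ± 0.10 in libraries 5 to 8 (adjusted p = 1.1e-18). STARD4, a cytosolic carrier that moves cholesterol between membranes, had the largest TGF-β1 change of the members in libraries 9 to 12. STARD4 stood at 85.1, 75.6, 86.3 and 85.98 CPM with TGF-β1, 37.6, 43.5, 51.2 and 52.9 CPM with FBS and 5.65, 4.22, 5.899 and 3.96 CPM in serum-free medium in libraries 9 to 12. STARD4 in libraries 5 to 8 stood at 119.7, 138, 134 and 129 CPM with TGF-β1, 51.98, 56.4, 49.2 and 52.4 CPM with FBS and 19.8, 20.9, 16.6 and 16.2 CPM in serum-free medium. The conditions kept the same order in both sets without overlap, TGF-β1 highest and serum-free lowest. With TGF-β1, STARD4 rose by 4.07 ± 0.13 in libraries 9 to 12 (edgeR adjusted p = 7.25e-20) and rose by 2.82 ± 0.11 in libraries 5 to 8 (adjusted p = 1.16e-17). With FBS, STARD4 rose by 3.22 ± 0.13 in libraries 9 to 12 (edgeR adjusted p = 2.33e-18) and rose by 1.51 ± 0.11 in libraries 5 to 8 (adjusted p = 1.57e-12).

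**Figure D2:**
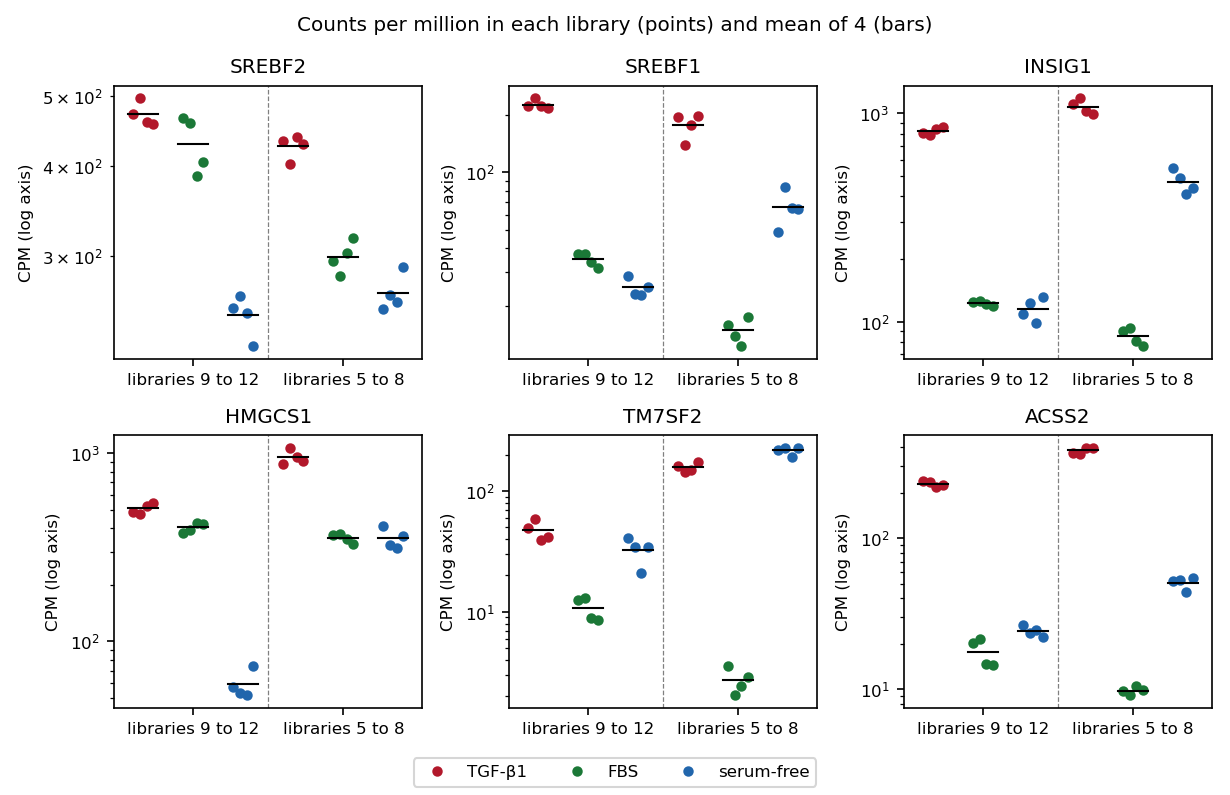
Points are CPM of single libraries on log axes for SREBF2, SREBF1, INSIG1, HMGCS1, TM7SF2 and ACSS2, and bars are means of 4 libraries. INSIG1 in libraries 9 to 12 lies at 784 to 862 CPM with TGF-β1, 119 to 126 with FBS and 98.4 to 131 in serum-free medium.

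The steps from acetoacetyl-CoA to squalene had 6 members by name. With TGF-β1, 5 rose in libraries 9 to 12 and 6 in libraries 5 to 8 (29.8% and 32.2% of all genes). With FBS, 5 rose and 1 fell in libraries 9 to 12 (38.9% and 40.2% of all genes). In libraries 5 to 8, 1 rose and 4 fell (39.5% and 39.2%). ACAT2, the cytosolic thiolase that joins acetyl-CoA units, opens the pathway. ACAT2 stood at 234, 242, 224 and 212 CPM with TGF-β1, 250.3, 222, 170.4 and 186 CPM with FBS and 33.4, 36.5, 25.3 and 34.9 CPM in serum-free medium in libraries 9 to 12. ACAT2 in libraries 5 to 8 stood at 361, 349, 379 and 389.6 CPM with TGF-β1, 144, 147, 159 and 163 CPM with FBS and 103, 95.6, 103 and 111 CPM in serum-free medium. Both treatments lay above serum-free in each set, and they overlapped each other only in libraries 9 to 12. With TGF-β1, ACAT2 rose by 2.81 ± 0.11 in libraries 9 to 12 (edgeR adjusted p = 4.89e-18) and rose by 1.84 ± 0.10 in libraries 5 to 8 (adjusted p = 1.35e-14). With FBS, ACAT2 rose by 2.67 ± 0.11 in libraries 9 to 12 (edgeR adjusted p = 4.95e-18) and rose by 0.58 ± 0.10 in libraries 5 to 8 (adjusted p = 1.21e-05). HMGCS1 is the cytosolic synthase that makes HMG-CoA. HMGCS1 stood at 489, 477, 527 and 547 CPM with TGF-β1, 377, 389, 427 and 423 CPM with FBS and 57.5, 53.1, 51.7 and 74.4 CPM in serum-free medium in libraries 9 to 12. HMGCS1 in libraries 5 to 8 stood at 872, 1073, 953 and 906 CPM with TGF-β1, 367, 373, 349 and 331 CPM with FBS and 409.5, 326, 313 and 363 CPM in serum-free medium. Serum-free libraries 9 to 12 lay below every other library of the study, and FBS overlapped serum-free in libraries 5 to 8. With TGF-β1, HMGCS1 rose by 3.11 ± 0.11 in libraries 9 to 12 (edgeR adjusted p = 2.99e-19) and rose by 1.43 ± 0.10 in libraries 5 to 8 (adjusted p = 9.28e-13). With FBS, HMGCS1 rose by 2.77 ± 0.10 in libraries 9 to 12 (edgeR adjusted p = 8.7e-19) and gave 0.01 ± 0.10, which was not called, in libraries 5 to 8 (adjusted p = 0.93).

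MVK, mevalonate kinase, adds the first phosphate to mevalonate. MVK stood at 46.3, 43.5, 44.4 and 46.5 CPM with TGF-β1, 40.8, 38.8, 31.8 and 35.8 CPM with FBS and 17.9, 14.5, 15.5 and 18.8 CPM in serum-free medium in libraries 9 to 12. MVK in libraries 5 to 8 stood at 55.8, 48.8, 54.7 and 51.6 CPM with TGF-β1, 27.5, 25.3, 25.9 and 27.6 CPM with FBS and 35.5, 44.02, 42.9 and 49.4 CPM in serum-free medium. TGF-β1 overlapped serum-free only in libraries 5 to 8, where FBS lay below it. With TGF-β1, MVK rose by 1.44 ± 0.10 in libraries 9 to 12 (edgeR adjusted p = 1.3e-12) and rose by 0.30 ± 0.10 in libraries 5 to 8 (adjusted p = 0.00869). The MVK call in libraries 5 to 8 was lost with total library sizes alone (adjusted p = 0.125). With FBS, MVK rose by 1.14 ± 0.10 in libraries 9 to 12 (edgeR adjusted p = 5.5e-11) and fell by 0.69 ± 0.10 in libraries 5 to 8 (adjusted p = 3.24e-07). PMVK, the next kinase of the pathway, changed least of this role. PMVK stood at 22.5, 21.7, 25.01 and 24.7 CPM with TGF-β1, 14.99, 19.7, 12.1 and 16.8 CPM with FBS and 25.4, 23.3, 17.5 and 26.4 CPM in serum-free medium in libraries 9 to 12. PMVK in libraries 5 to 8 stood at 32.4, 37.1, 38.9 and 33.3 CPM with TGF-β1, 14.5, 13.4, 14.02 and 14.3 CPM with FBS and 28.9, 27.97, 29.3 and 30.9 CPM in serum-free medium. FBS lay below serum-free without overlap only in libraries 5 to 8. With TGF-β1, PMVK gave 0.02 ± 0.12, which was not called, in libraries 9 to 12 (edgeR adjusted p = 0.884) and rose by 0.28 ± 0.12 in libraries 5 to 8 (adjusted p = 0.0434). The PMVK call in libraries 5 to 8 was lost without any of serum-free libraries 5, 6 or 7 or TGF-β1 libraries 6 or 7 (adjusted p = 0.0678 to 0.124), and with DESeq2 (adjusted p = 0.0614). With FBS, PMVK fell by 0.54 ± 0.12 in libraries 9 to 12 (edgeR adjusted p = 0.000265) and fell by 1.05 ± 0.12 in libraries 5 to 8 (adjusted p = 1.14e-08).

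FDPS, farnesyl diphosphate synthase, supplies both the sterol and the isoprenoid branch. FDPS stood at 181, 180.3, 177 and 174 CPM with TGF-β1, 199.97, 197, 149.7 and 148 CPM with FBS and 43.04, 42.5, 29.1 and 40.7 CPM in serum-free medium in libraries 9 to 12. FDPS in libraries 5 to 8 stood at 248, 244, 269.7 and 283 CPM with TGF-β1, 114, 106, 106 and 113 CPM with FBS and 147, 149.8, 155 and 177 CPM in serum-free medium. FBS lay above serum-free in libraries 9 to 12, where it overlapped TGF-β1, and below it in libraries 5 to 8. With TGF-β1, FDPS rose by 2.20 ± 0.11 in libraries 9 to 12 (edgeR adjusted p = 1.1e-15) and rose by 0.73 ± 0.10 in libraries 5 to 8 (adjusted p = 8.99e-07). With FBS, FDPS rose by 2.16 ± 0.11 in libraries 9 to 12 (edgeR adjusted p = 5.53e-16) and fell by 0.52 ± 0.10 in libraries 5 to 8 (adjusted p = 6.32e-05). FDFT1, squalene synthase, commits farnesyl diphosphate to sterols. FDFT1 stood at 165, 162, 169 and 150.3 CPM with TGF-β1, 168, 158, 128 and 122 CPM with FBS and 93.9, 89.4, 78.3 and 84.6 CPM in serum-free medium in libraries 9 to 12. FDFT1 in libraries 5 to 8 stood at 229.6, 233, 252 and 232 CPM with TGF-β1, 113, 114, 104 and 111 CPM with FBS and 192, 181, 189 and 213 CPM in serum-free medium. Its FBS libraries likewise lay above serum-free in libraries 9 to 12 and below it in libraries 5 to 8. With TGF-β1, FDFT1 rose by 0.90 ± 0.09 in libraries 9 to 12 (edgeR adjusted p = 8.24e-10) and rose by 0.29 ± 0.08 in libraries 5 to 8 (adjusted p = 0.00431). The FDFT1 call in libraries 5 to 8 was lost with total library sizes alone (adjusted p = 0.11). With FBS, FDFT1 rose by 0.73 ± 0.09 in libraries 9 to 12 (edgeR adjusted p = 1.64e-08) and fell by 0.81 ± 0.09 in libraries 5 to 8 (adjusted p = 2.18e-09). IDI1, the isopentenyl diphosphate isomerase found by gene number, ranged over 30.8 to 36.3 CPM with TGF-β1, 26.2 to 30.1 with FBS and 9.85 to 13.8 in serum-free medium in libraries 9 to 12, and over 63.8 to 72.9, 39.4 to 46.5 and 41.2 to 49.4 CPM in libraries 5 to 8. With TGF-β1, IDI1 rose by 1.49 ± 0.10 in libraries 9 to 12 (edgeR adjusted p = 4.64e-13) and rose by 0.67 ± 0.09 in libraries 5 to 8 (adjusted p = 4.73e-07). With FBS, IDI1 rose by 1.28 ± 0.10 in libraries 9 to 12 (edgeR adjusted p = 4.45e-12) and gave -0.03 ± 0.09, which was not called, in libraries 5 to 8 (adjusted p = 0.775).

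Of the 8 members by name that turn squalene into cholesterol, all rose with TGF-β1 in libraries 9 to 12 (29.8% of all genes). In libraries 5 to 8, 7 rose and 1 fell with TGF-β1 (32.2% and 31.5%). With FBS, 7 rose and 1 fell in libraries 9 to 12 (38.9% and 40.2% of all genes), against 2 and 4 in libraries 5 to 8 (39.5% and 39.2%). SQLE, squalene epoxidase, carries out the first oxygen-dependent step. SQLE stood at 182, 183, 186 and 187 CPM with TGF-β1, 117, 123, 135 and 129 CPM with FBS and 44.3, 41.6, 39.5 and 55.9 CPM in serum-free medium in libraries 9 to 12. SQLE in libraries 5 to 8 stood at 299, 308, 309 and 294 CPM with TGF-β1, 106, 115, 112 and 111 CPM with FBS and 163, 152, 141 and 164 CPM in serum-free medium. TGF-β1 was highest in both sets, and FBS lay above serum-free in libraries 9 to 12 and below it in libraries 5 to 8. With TGF-β1, SQLE rose by 2.03 ± 0.08 in libraries 9 to 12 (edgeR adjusted p = 1.38e-17) and rose by 0.96 ± 0.08 in libraries 5 to 8 (adjusted p = 3.79e-11). With FBS, SQLE rose by 1.48 ± 0.08 in libraries 9 to 12 (edgeR adjusted p = 3.88e-15) and fell by 0.48 ± 0.08 in libraries 5 to 8 (adjusted p = 4.07e-06). LSS, lanosterol synthase, closes the sterol rings. LSS stood at 367, 396, 375 and 376 CPM with TGF-β1, 206, 206, 176 and 185 CPM with FBS and 131, 144, 139 and 154 CPM in serum-free medium in libraries 9 to 12. LSS in libraries 5 to 8 stood at 517, 478, 546 and 549.6 CPM with TGF-β1, 161, 160.2, 163 and 168 CPM with FBS and 429, 409, 394 and 469.7 CPM in serum-free medium. Its conditions did not overlap, and FBS was the lowest in libraries 5 to 8. With TGF-β1, LSS rose by 1.41 ± 0.07 in libraries 9 to 12 (edgeR adjusted p = 1.12e-15) and rose by 0.30 ± 0.07 in libraries 5 to 8 (adjusted p = 0.000534). With FBS, LSS rose by 0.44 ± 0.07 in libraries 9 to 12 (edgeR adjusted p = 2.59e-06) and fell by 1.38 ± 0.07 in libraries 5 to 8 (adjusted p = 5.19e-16).

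TM7SF2, a sterol reductase that acts after lanosterol, was the member with the largest fall. TM7SF2 stood at 49.4, 58.7, 39.1 and 42.02 CPM with TGF-β1, 12.5, 13.1, 8.902 and 8.497 CPM with FBS and 40.5, 34.7, 21.1 and 34.5 CPM in serum-free medium in libraries 9 to 12. TM7SF2 in libraries 5 to 8 stood at 162, 143, 151 and 174 CPM with TGF-β1, 3.58, 2.04, 2.42 and 2.87 CPM with FBS and 217, 227, 193 and 229 CPM in serum-free medium. Its FBS libraries lay below serum-free in both sets, near 0 in libraries 5 to 8, and its TGF-β1 libraries overlapped serum-free in libraries 9 to 12 and lay below it in libraries 5 to 8. With TGF-β1, TM7SF2 rose by 0.53 ± 0.16 in libraries 9 to 12 (edgeR adjusted p = 0.00557) and fell by 0.46 ± 0.15 in libraries 5 to 8 (adjusted p = 0.00993). With total library sizes alone the TM7SF2 call in libraries 9 to 12 was lost, at 0.35 with an adjusted p of 0.0663. With FBS, TM7SF2 fell by 1.61 ± 0.17 in libraries 9 to 12 (edgeR adjusted p = 2.4e-09) and fell by 6.32 ± 0.21 in libraries 5 to 8 (adjusted p = 2.67e-20). EBP is a sterol isomerase of the later steps. EBP stood at 247, 246, 233 and 223 CPM with TGF-β1, 95.00, 90.3, 62.4 and 58.6 CPM with FBS and 34.3, 31.2, 20.7 and 30.6 CPM in serum-free medium in libraries 9 to 12. EBP in libraries 5 to 8 stood at 315, 291, 312 and 311 CPM with TGF-β1, 36.7, 35.9, 37.8 and 42.4 CPM with FBS and 86.4, 87.98, 84.5 and 97.03 CPM in serum-free medium. TGF-β1 lay above both other conditions in each set, and FBS lay above serum-free in libraries 9 to 12 and below it in libraries 5 to 8. With TGF-β1, EBP rose by 3.02 ± 0.14 in libraries 9 to 12 (edgeR adjusted p = 1.44e-16) and rose by 1.79 ± 0.13 in libraries 5 to 8 (adjusted p = 2.71e-12). With FBS, EBP rose by 1.39 ± 0.13 in libraries 9 to 12 (edgeR adjusted p = 3.26e-10) and fell by 1.22 ± 0.13 in libraries 5 to 8 (adjusted p = 2.72e-09). In FBS libraries 9 and 10, TM7SF2 and EBP lay above FBS libraries 11 and 12. Among members printed library by library, so did ACAT2, MVK, FDPS, FDFT1, LSS, SREBF1, SREBF2, INSIG1, ACSS2, FADS1 and FADS2. HMGCS1, SQLE, STARD4, ME1 and ELOVL6 lay below, and PMVK overlapped.

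MSMO1 and NSDHL, which strip methyl groups from the sterol ring, were the members that ended higher with FBS than with TGF-β1 in libraries 9 to 12, together with ELOVL6. MSMO1 ranged over 278 to 289 CPM with TGF-β1, 316 to 369 with FBS and 55.5 to 78.9 in serum-free medium in libraries 9 to 12. NSDHL ranged over 62.7 to 71.3, 80.8 to 102 and 9.24 to 13.4 CPM in the same conditions and libraries. TGF-β1 against FBS in libraries 9 to 12 lowered MSMO1 by 0.25 ± 0.09 (edgeR adjusted p = 0.0146) and NSDHL by 0.46 ± 0.10 (adjusted p = 0.000231). The MSMO1 call was lost without FBS libraries 9 and 10, at -0.17 with an adjusted p of 0.16. In libraries 5 to 8, MSMO1 went the other way and was called higher with TGF-β1 than with FBS. Its means there were 237 and 155 fragments scaled by gene length and library size (FPKM). That call was lost in 3 alternative settings. NSDHL in libraries 5 to 8 gave 0.19 for TGF-β1 against FBS, which was not called. HSD17B7, a ketoreductase of the same steps, rose with TGF-β1 by 1.63 ± 0.09 in libraries 9 to 12 and by 1.27 ± 0.09 in libraries 5 to 8. With FBS, HSD17B7 rose by 1.48 ± 0.09 in libraries 9 to 12 and gave 0.10 ± 0.09, which was not called, in libraries 5 to 8. SC5D, a sterol desaturase, rose with TGF-β1 by 2.51 ± 0.08 in libraries 9 to 12 and by 1.87 ± 0.08 in libraries 5 to 8. SC5D shares 18917 bases with GNG10 on the same strand by the coordinates deposited with the counts, so its counts could hold reads of that gene. The FBS call of SC5D in libraries 5 to 8, a rise of 0.18 ± 0.08, was lost without serum-free libraries 6 or 8 or FBS library 6 (adjusted p = 0.058 to 0.163). In libraries 9 to 12, SC5D rose with FBS by 1.45 ± 0.08. CYP51A1, the lanosterol demethylase found by gene number, rose with TGF-β1 by 2.27 ± 0.06 in libraries 9 to 12 and by 1.69 ± 0.06 in libraries 5 to 8. Its mean in libraries 9 to 12 was 77.4 FPKM with FBS, against 33.5 FPKM in serum-free medium. FBS against serum-free gave -0.025 for CYP51A1 in libraries 5 to 8.

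In the supply of acetyl-CoA and NADPH for fatty acid synthesis, all 4 members rose with TGF-β1 in both sets. Their median was 2.77 in libraries 9 to 12 and 2.18 in libraries 5 to 8 on the log2 scale. Of all genes, 29.8% and 32.2% rose with TGF-β1 in these sets. ACSS2 makes acetyl-CoA from acetate. ACSS2 stood at 240.04, 237, 219 and 224 CPM with TGF-β1, 20.3, 21.5, 14.7 and 14.4 CPM with FBS and 26.6, 23.4, 24.5 and 22.1 CPM in serum-free medium in libraries 9 to 12. ACSS2 in libraries 5 to 8 stood at 369, 363, 397 and 399 CPM with TGF-β1, 9.69, 9.101, 10.5 and 9.84 CPM with FBS and 51.9, 52.7, 44.1 and 54.4 CPM in serum-free medium. TGF-β1 lay far above serum-free and FBS lay below it in both sets, with no overlap. With TGF-β1, ACSS2 rose by 3.25 ± 0.11 in libraries 9 to 12 (edgeR adjusted p = 1.13e-19) and rose by 2.91 ± 0.10 in libraries 5 to 8 (adjusted p = 5.22e-19). With FBS, ACSS2 fell by 0.45 ± 0.10 in libraries 9 to 12 (edgeR adjusted p = 0.000355) and fell by 2.38 ± 0.11 in libraries 5 to 8 (adjusted p = 3.65e-17). TGF-β1 against FBS raised ACSS2 12.98-fold in libraries 9 to 12 and 39.03-fold in libraries 5 to 8. ME1 is the cytosolic malic enzyme that yields NADPH. ME1 stood at 273, 271, 269.9 and 273 CPM with TGF-β1, 45.02, 48.9, 57.9 and 56.5 CPM with FBS and 50.2, 47.2, 46.6 and 33.4 CPM in serum-free medium in libraries 9 to 12. ME1 in libraries 5 to 8 stood at 162, 193, 179.9 and 176 CPM with TGF-β1, 51.6, 56.1, 49.2 and 46.4 CPM with FBS and 47.8, 44.2, 41.7 and 39.1 CPM in serum-free medium. FBS overlapped serum-free in both sets. With TGF-β1, ME1 rose by 2.61 ± 0.11 in libraries 9 to 12 (edgeR adjusted p = 9.4e-18) and rose by 2.04 ± 0.10 in libraries 5 to 8 (adjusted p = 1.38e-15). With FBS, ME1 rose by 0.23 ± 0.10 in libraries 9 to 12 (edgeR adjusted p = 0.0415) and rose by 0.23 ± 0.10 in libraries 5 to 8 (adjusted p = 0.0382). The ME1 calls with FBS were lost with DESeq2 (adjusted p = 0.062 in libraries 9 to 12 and 0.0821 in libraries 5 to 8). They were also lost without serum-free library 12 or FBS libraries 11 or 12 in libraries 9 to 12 (adjusted p = 0.107 to 0.227), and without serum-free libraries 7 or 8 or FBS libraries 5 or 6 in libraries 5 to 8 (adjusted p = 0.0626 to 0.118).

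ACLY, the citrate lyase that releases acetyl-CoA in the cytosol, ranged over 962 to 1029 CPM with TGF-β1, 266 to 281 with FBS and 124 to 134 in serum-free medium in libraries 9 to 12, and over 1100.3 to 1255, 225 to 244 and 224 to 254 CPM in libraries 5 to 8. With TGF-β1, ACLY rose by 2.93 ± 0.06 in libraries 9 to 12 (edgeR adjusted p = 4.4e-23) and rose by 2.33 ± 0.06 in libraries 5 to 8 (adjusted p = 1.24e-21). With FBS, ACLY rose by 1.08 ± 0.06 in libraries 9 to 12 (edgeR adjusted p = 3.02e-15) and gave -0.01 ± 0.06, which was not called, in libraries 5 to 8 (adjusted p = 0.858). ACACA, acetyl-CoA carboxylase, the committed step of fatty acid synthesis, ranged over 195 to 225 CPM with TGF-β1, 118 to 131 with FBS and 39.7 to 50.97 in serum-free medium in libraries 9 to 12, and over 204 to 233, 159 to 169 and 69.6 to 81.9 CPM in libraries 5 to 8. Both treatments lay above serum-free in each set. With TGF-β1, ACACA rose by 2.27 ± 0.08 in libraries 9 to 12 (edgeR adjusted p = 5.17e-19) and rose by 1.504 ± 0.08 in libraries 5 to 8 (adjusted p = 1.77e-15). With FBS, ACACA rose by 1.51 ± 0.08 in libraries 9 to 12 (edgeR adjusted p = 8.54e-16) and rose by 1.11 ± 0.08 in libraries 5 to 8 (adjusted p = 3.77e-13).

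Elongation and desaturation had 3 members by name, which all rose with TGF-β1 in both sets. The share of all genes that rose was 29.8% in libraries 9 to 12 and 32.2% in libraries 5 to 8. ELOVL6, which lengthens palmitate, was the member with the largest rise with FBS in libraries 5 to 8. ELOVL6 stood at 39.6, 38.7, 39.8 and 45.1 CPM with TGF-β1, 118, 117, 136 and 148 CPM with FBS and 20.4, 22.9, 23.8 and 27.96 CPM in serum-free medium in libraries 9 to 12. ELOVL6 in libraries 5 to 8 stood at 59.3, 74.7, 65.4 and 65.3 CPM with TGF-β1, 166, 177, 165 and 171 CPM with FBS and 55.7, 51.5, 51.1 and 45.01 CPM in serum-free medium. FBS lay above TGF-β1, and TGF-β1 above serum-free, in each set. With TGF-β1, ELOVL6 rose by 0.78 ± 0.10 in libraries 9 to 12 (edgeR adjusted p = 1.19e-07) and rose by 0.38 ± 0.09 in libraries 5 to 8 (adjusted p = 0.000994). With FBS, ELOVL6 rose by 2.45 ± 0.10 in libraries 9 to 12 (edgeR adjusted p = 3.95e-18) and rose by 1.74 ± 0.10 in libraries 5 to 8 (adjusted p = 2.28e-15). FADS1 is a desaturase of polyunsaturated fatty acids. FADS1 stood at 937, 934, 977 and 974 CPM with TGF-β1, 347, 345, 324 and 334 CPM with FBS and 187, 178, 193 and 182 CPM in serum-free medium in libraries 9 to 12. FADS1 in libraries 5 to 8 stood at 891, 874, 892 and 869.9 CPM with TGF-β1, 276, 277, 285 and 289 CPM with FBS and 292, 321, 289 and 297 CPM in serum-free medium. TGF-β1 was above both other conditions, and FBS overlapped serum-free only in libraries 5 to 8. With TGF-β1, FADS1 rose by 2.37 ± 0.06 in libraries 9 to 12 (edgeR adjusted p = 2.16e-22) and rose by 1.56 ± 0.05 in libraries 5 to 8 (adjusted p = 4.35e-19). With FBS, FADS1 rose by 0.87 ± 0.05 in libraries 9 to 12 (edgeR adjusted p = 4.1e-14) and gave -0.09 ± 0.05, which was not called, in libraries 5 to 8 (adjusted p = 0.13). FADS2 is the desaturase that acts before it. FADS2 stood at 669.5, 721, 685 and 687 CPM with TGF-β1, 243, 241, 187 and 200.2 CPM with FBS and 150.1, 171, 164 and 145 CPM in serum-free medium in libraries 9 to 12. FADS2 in libraries 5 to 8 stood at 583, 569, 577 and 570.4 CPM with TGF-β1, 95.1, 99.4, 99.04 and 100.02 CPM with FBS and 247, 303, 273 and 289 CPM in serum-free medium. FBS lay above serum-free in libraries 9 to 12 and below it in libraries 5 to 8. With TGF-β1, FADS2 rose by 2.13 ± 0.08 in libraries 9 to 12 (edgeR adjusted p = 2.48e-18) and rose by 1.05 ± 0.08 in libraries 5 to 8 (adjusted p = 4.85e-12). With FBS, FADS2 rose by 0.47 ± 0.08 in libraries 9 to 12 (edgeR adjusted p = 5.42e-06) and fell by 1.498 ± 0.08 in libraries 5 to 8 (adjusted p = 1.21e-15).

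**Figure D3:**
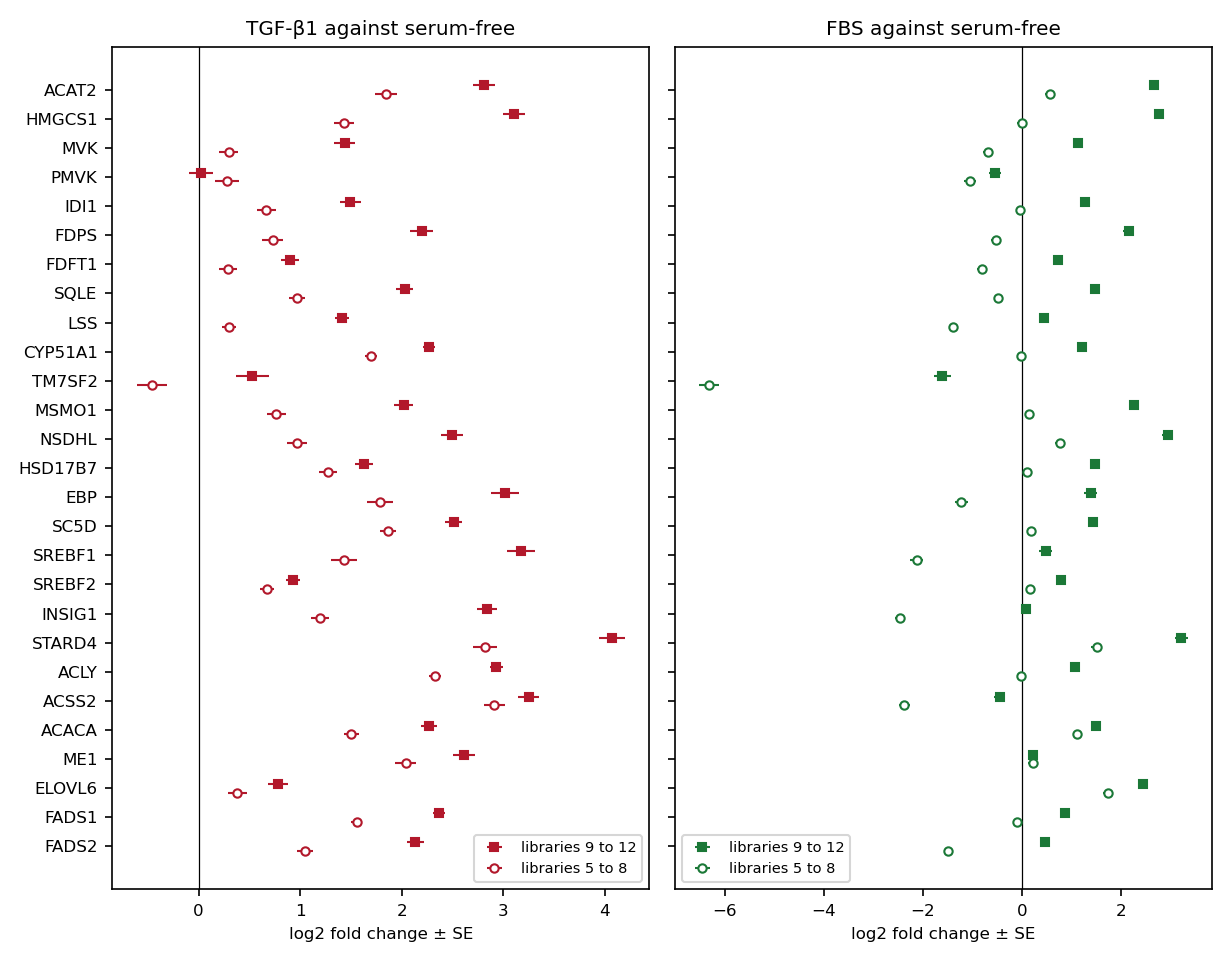
Points are log2 fold changes against serum-free medium with their standard errors, for TGF-β1 on the left and FBS on the right, with libraries 9 to 12 as filled squares and libraries 5 to 8 as open circles. With TGF-β1 nearly all points lie right of 0 in both sets, and with FBS most circles lie at or left of 0 and most squares right of it.

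Set against FBS directly, TGF-β1 gave higher levels for 17 members and lower for 3 in libraries 9 to 12 (34.7% and 36% of all genes, 70.7% in all), and higher for 23 and lower for 1 in libraries 5 to 8 (35.6% and 35.3% of all genes, 70.9% in all). Without overlap, 17 members lay above FBS and 3 below in libraries 9 to 12 (31% and 32.3% of all genes), and 23 above and 1 below in libraries 5 to 8 (33.3% and 34.4% of all genes). The members' median was 0.76 in libraries 9 to 12 and 1.42 in libraries 5 to 8. In libraries 5 to 8 the widest gaps were in TM7SF2, ACSS2, INSIG1 and SREBF1. Between the treatments, TM7SF2 with TGF-β1 against FBS rose by 2.14 ± 0.17 in libraries 9 to 12 (edgeR adjusted p = 1.27e-11) and rose by 5.86 ± 0.20 in libraries 5 to 8 (adjusted p = 1.5e-19). Between the treatments, INSIG1 with TGF-β1 against FBS rose by 2.75 ± 0.10 in libraries 9 to 12 (edgeR adjusted p = 2.54e-19) and rose by 3.66 ± 0.10 in libraries 5 to 8 (adjusted p = 9.37e-22). Between the treatments, SREBF1 with TGF-β1 against FBS rose by 2.69 ± 0.13 in libraries 9 to 12 (edgeR adjusted p = 6.05e-16) and rose by 3.56 ± 0.14 in libraries 5 to 8 (adjusted p = 3.25e-18). ELOVL6 was the member lower with TGF-β1 in both sets. Between the treatments, ELOVL6 with TGF-β1 against FBS fell by 1.67 ± 0.10 in libraries 9 to 12 (edgeR adjusted p = 1.22e-14) and fell by 1.36 ± 0.09 in libraries 5 to 8 (adjusted p = 5.36e-13). In libraries 9 to 12, ACAT2, FDPS, FDFT1, HSD17B7 and SREBF2 were not called between the treatments, with log2 fold changes from 0.04 to 0.17. This depended on the settings. SREBF2 and FDFT1 were called higher with TGF-β1 in 8 alternative settings each, HSD17B7 in 4, ACAT2 in 3 and FDPS in 1. Fits with single libraries left out are not counted there. Without FBS libraries 9 and 10, the counts in libraries 9 to 12 were 21 higher and 2 lower. With total library sizes alone the median of all genes was -0.35 in libraries 9 to 12 and -0.40 in libraries 5 to 8. In the main fit it was 0.0064 and 0.014. Under total library sizes 6 members were lower with TGF-β1 in libraries 9 to 12 and 2 in libraries 5 to 8. Among members called above, the direction turned for HMGCS1 (-0.023), MVK (-0.061) and IDI1 (-0.14) in libraries 9 to 12 and for ACACA (-0.019) in libraries 5 to 8. The direction here is relative to no change and not to the medians under total library sizes. Among members not called above, it turned for ACAT2 (-0.21), FDPS (-0.32), FDFT1 (-0.19), HSD17B7 (-0.21) and SREBF2 (-0.22) in libraries 9 to 12 and for NSDHL (-0.23) in libraries 5 to 8.

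In serum-free libraries 9 to 12 against serum-free libraries 5 to 8, 23 of 25 members fell and 0 rose (20.1% and 21.5% of all genes), with a median log2 fold change of -1.36 against 0.02 over all genes. The sets were kept apart because their serum-free libraries were known to differ in these genes. The comparison therefore describes the size of that difference and is no independent evidence that it exists. HMGCS1 fell furthest among the early steps, by 2.58 ± 0.10, and TM7SF2 furthest of all, by 2.73 ± 0.16 (edgeR adjusted p = 3.54e-16 and 1.28e-12). SREBF2 (-0.10 ± 0.07) and ME1 (0.04 ± 0.10) were the members not called, and their libraries overlapped. The fall of PMVK, by 0.34 ± 0.12, was lost without serum-free libraries 8 or 11 (adjusted p = 0.0578 to 0.12). The other 23 lay below in libraries 9 to 12 without overlap, as did 17.6% of all genes. As a description with no test, the median log2 ratio of libraries 9 to 12 over libraries 5 to 8 was -0.51 with TGF-β1, 0.26 with FBS and -1.36 in serum-free medium. It was below 0 for 20 members with TGF-β1, 3 with FBS and 24 in serum-free medium. The 6 cycling markers were all lower in serum-free libraries 9 to 12 as well, and the 4 myofibroblast markers summed to 12.8 to 25.8 CPM there against 43.9 to 50.2 CPM in serum-free libraries 5 to 8. The Spearman correlation, across genes, of gene length with the deviation from the serum-free mean was -0.382 to 0.0607 in serum-free libraries 9 to 12 and 0.150 to 0.253 in serum-free libraries 5 to 8, without overlap. The part of these markers and of gene length in the result was not tested.

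**Figure D4:**
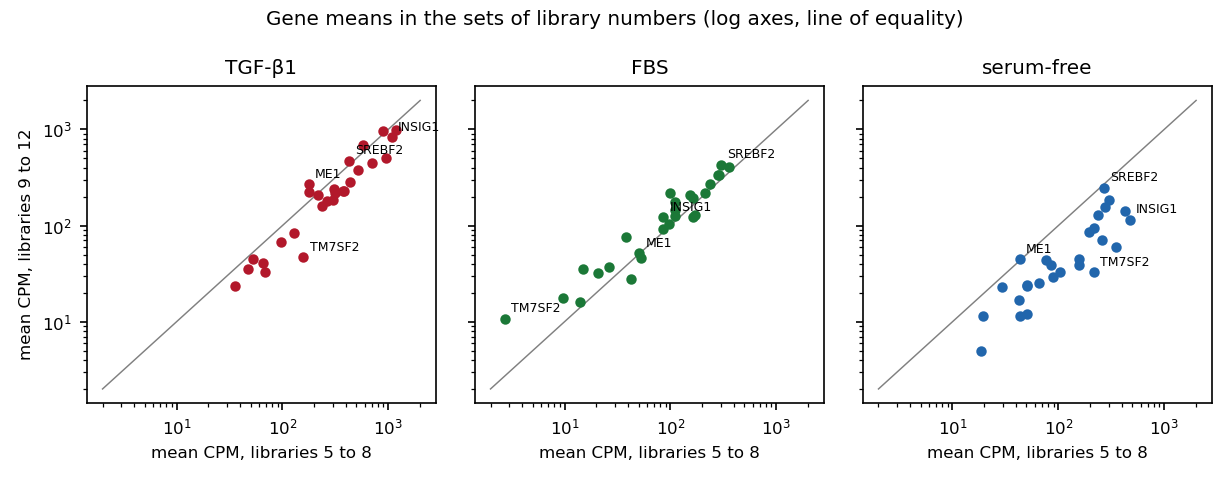
Each point is 1 gene, with its mean CPM in libraries 9 to 12 on the vertical axis and in libraries 5 to 8 on the horizontal axis, both logarithmic, in each condition, and the grey line marks equality. In serum-free medium nearly all points lie below that line, and with FBS most lie on or above it.

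The effects of both treatments against serum-free medium were also tested for a difference between the sets. The values are signed, the log2 fold change in libraries 9 to 12 minus that in libraries 5 to 8. For TGF-β1 the difference was called above 0 for 20 members and below 0 for none (4.22% and 5.4% of all genes, 9.62% in all), with a median difference of 0.99. For FBS it was called above 0 for 24 members and below 0 for none (11.2% and 9.74% of all genes, 21% in all), with a median difference of 1.83. A difference above 0 is not always a larger effect: TM7SF2, ACSS2 and PMVK fell with FBS in both sets, and fell by less in libraries 9 to 12. These differences share the serum-free libraries with the comparison of the serum-free sets, so they are not separate evidence. The TGF-β1 effect on SREBF1 differed most, by 1.74 ± 0.18 (edgeR adjusted p = 1.87e-07). The FBS effect on TM7SF2 differed most, by 4.71 ± 0.26 (edgeR adjusted p = 4.81e-13). For HMGCS1 the TGF-β1 effect differed by 1.68 ± 0.14 and the FBS effect by 2.76 ± 0.14 (edgeR adjusted p = 5.01e-09 and 1.42e-13). The FBS effect on ME1 differed by -0.0037 ± 0.14 and was not called. Without FBS libraries 9 and 10 the FBS difference was called above 0 for 23 members. Across the sets, which share no library, 23 members rose with TGF-β1 in both (25.1% of all genes), and 8 rose and 3 fell with FBS in both (34.5% and 34.2% of all genes). The 8 members that FBS moved in opposite directions, up in libraries 9 to 12 and down in libraries 5 to 8, were MVK, FDPS, FDFT1, SQLE, LSS, EBP, SREBF1 and FADS2.

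Levels between genes were compared only per length, on the authors' FPKM (fragments scaled by gene length and library size). In libraries 9 to 12, FADS1 was the highest member with TGF-β1 (314 ± 7.23 FPKM) and in serum-free medium (60.4 ± 1.89 FPKM; SD, n = 4), and MSMO1 the highest with FBS (182 ± 12.2 FPKM). In libraries 5 to 8, INSIG1 was the highest with TGF-β1 (381 ± 27.6 FPKM) and in serum-free medium (170.1 ± 22.4 FPKM), and MSMO1 the highest with FBS (155 ± 2.41 FPKM). The lowest member was ELOVL6 with TGF-β1 (6.496 ± 0.463 FPKM in libraries 9 to 12 and 10.4 ± 0.954 in libraries 5 to 8). In serum-free medium it was STARD4 (1.22 ± 0.241 and 4.61 ± 0.601 FPKM in the same sets). With FBS it was ACSS2 in libraries 9 to 12 (6.14 ± 1.23 FPKM) and TM7SF2 in libraries 5 to 8 (1.84 ± 0.4497 FPKM). By group means in CPM, TGF-β1 in libraries 5 to 8 held the highest value for 18 of 25 members, and serum-free libraries 9 to 12 the lowest for 18.

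Of 11 listed genes of the machinery that moves and holds SREBPs, 10 were tested. With TGF-β1, 3 rose and 2 fell in libraries 9 to 12 (61.3% of all genes called in either direction), and 5 rose and 3 fell in libraries 5 to 8 (63.6%). With FBS, 3 rose and 5 fell in libraries 9 to 12 (79% of all genes), and 3 rose and 6 fell in libraries 5 to 8 (78.7%). INSIG2, the second INSIG protein, fell with FBS by 0.83 ± 0.11 in libraries 9 to 12 and by 1.43 ± 0.12 in libraries 5 to 8 (edgeR adjusted p = 2.91e-07 and 8.8e-12). TGF-β1 raised INSIG2 by 0.46 ± 0.11 in libraries 9 to 12 (edgeR adjusted p = 0.000841), with no call in libraries 5 to 8. AUP1, an adaptor of protein degradation at the endoplasmic reticulum, rose with TGF-β1 by 0.54 ± 0.08 in libraries 9 to 12 and by 0.94 ± 0.08 in libraries 5 to 8 (edgeR adjusted p = 3.1e-06 and 1.89e-10). AUP1 also rose with FBS, by 0.91 ± 0.08 and 1.30 ± 0.08 in these sets (edgeR adjusted p = 1.3e-10 and 8.1e-14). Among 10 tested genes of other sterol synthesis and uptake, 6 rose and 3 fell with TGF-β1 in libraries 9 to 12 (29.8% and 31.5% of all genes), and 6 rose and 2 fell in libraries 5 to 8 (32.2% and 31.5%). With FBS, 6 rose and 4 fell in libraries 9 to 12 (38.9% and 40.2% of all genes), and 4 rose and 5 fell in libraries 5 to 8 (39.5% and 39.2%). LPIN1, a phosphatidate phosphatase, rose with TGF-β1 by 2.43 ± 0.11 and 2.29 ± 0.11 and fell with FBS by 1.94 ± 0.11 and 2.55 ± 0.12 in libraries 9 to 12 and 5 to 8.

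Genes that answer to the liver X receptors, the sensors of oxysterols, and the enzymes that make oxysterols mostly fell with FBS. Of 9 tested, 0 rose and 7 fell with FBS in libraries 9 to 12 (38.9% and 40.2% of all genes), and 0 rose and 8 fell in libraries 5 to 8 (39.5% and 39.2%), with medians of -2.68 and -3.40 against -0.06 and -0.03 over all genes. With TGF-β1, 3 rose and 3 fell in libraries 9 to 12 (29.8% and 31.5% of all genes), and 2 rose and 3 fell in libraries 5 to 8 (32.2% and 31.5%), with medians of 0.12 and -0.38 against -0.04 and -0.02 over all genes. Without serum-free library 8, 1 gene of the list rose with FBS in libraries 5 to 8. MYLIP, a ligase that marks lipoprotein receptors for breakdown, fell with FBS by 4.43 ± 0.13 in libraries 9 to 12 and by 4.36 ± 0.13 in libraries 5 to 8. It also fell with TGF-β1, by 1.69 ± 0.11 and 1.45 ± 0.11 in the same sets. CYP27A1, an oxysterol-making hydroxylase, fell with TGF-β1 by 2.49 ± 0.11 and 1.90 ± 0.10, and with FBS by 3.203 ± 0.11 and 3.40 ± 0.11, in libraries 9 to 12 and 5 to 8. In cholesterol transport and esterification, 13 genes were tested. With TGF-β1, 9 rose and 2 fell in libraries 9 to 12, and 10 rose and 2 fell in libraries 5 to 8, against the same shares of all genes as above. With FBS, 5 rose and 6 fell in libraries 9 to 12 (79% of all genes called in either direction), and 3 rose and 6 fell in libraries 5 to 8 (78.7%). NPC2, which carries cholesterol out of lysosomes, rose with TGF-β1 by 2.20 ± 0.12 and 2.58 ± 0.12 and fell with FBS by 0.64 ± 0.12 and 1.56 ± 0.12. CAV1, the coat protein of caveolae, rose with FBS by 5.35 ± 0.13 in libraries 9 to 12 and by 6.21 ± 0.14 in libraries 5 to 8. All 6 markers of cycling cells rose with FBS in both sets, with medians of 7.97 in libraries 9 to 12 and 5.45 in libraries 5 to 8. Of all genes, 38.9% and 39.5% rose with FBS in these sets, with medians of -0.06 and -0.03. Their part in the FBS results was not tested.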

How the data were processed

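The 24 samples were sequenced as bulk RNA libraries by a company, per the labels' protocols. The aligner, counter, strand setting and genome build: not given in the sources used here. As deposited, the gene table holds whole numbers with unequal totals, that is, raw counts. Its companion table holds the authors' FPKM, which by their values are these counts over gene length and a scaled library size. FPKM served for levels between genes and as an alternative unit.

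The raw counts went into edgeR 4.0.16 (R 4.3.3). The filterByExpr filter left 14037 of 23428 genes. With TMM scaling, 1 model with 6 condition-by-set coefficients covered the 24 libraries. Each contrast used the quasi-likelihood F-test, and Benjamini-Hochberg adjustment ran over the 14037 genes. Standard errors come from that fit, and CPM use the TMM sizes. The fit was run on simulated counts with 1 mean per gene over all libraries and changes only in TGF-β1 libraries 9 to 12. Against serum-free there, it recovered 93% of 2-fold and 100% of 4-fold changes, with 7 false calls. For the difference of the TGF-β1 effect between the sets, it recovered 71% of 2-fold and 98% of 4-fold changes, with 9 false calls. The simulation held no difference between the serum-free sets and no shift with gene length, so it cannot speak to these. Alternatives used DESeq2 1.42.0 and limma 3.58.1. Members and lists were chosen with earlier results of these data known. Values of every library are printed for the member of each role with the largest and the smallest mean absolute change against serum-free, for SREBF1, SREBF2, INSIG1, HMGCS1 and SQLE, and for members called in opposite directions. Of other lists, up to 3 called genes with the largest mean change against serum-free are named. Some genes the rule names are not reported here. No promoter or sequence was used.

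IDI1 and CYP51A1 are listed by gene number and were matched through RefSeq (assembly mOryCun1.1). By the coordinates deposited with the counts, ACAT2, IDI1, ACACA and ME1 overlap genes on the other strand. SC5D overlaps a gene on the same strand, so the reads of these members could be shared. Within groups, the chi-square between pairs of libraries ran from 2.89 to 75.8 per gene, so none was counted as a duplicate. The lowest library total was 15410285 counts.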

Additional observations from a re-analysis of the deposited data

Results flagged for a closer look

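In 5 of 162 groups of 4 libraries (3.09%), 1 library stood apart by its gap to the nearest of the others. Chance alone does so in about 1 in 20 such groups. IDI1 counted 49.4 CPM in serum-free library 8, against 42.0 CPM in the next highest library of that group. CYP51A1 counted 238 CPM in the same library, against 211 CPM in the next. FDPS counted 29.1 CPM in serum-free library 11, the lowest of its group, against 40.7 CPM in the next. EBP counted 291 CPM in TGF-β1 library 6, the lowest of its group, against 311 CPM. STARD4 counted 75.6 CPM in TGF-β1 library 10, the lowest of its group, against 85.1 CPM.

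The effect of a treatment against serum-free medium differed between libraries 9 to 12 and libraries 5 to 8 by edgeR's test of the difference. Values are the log2 effect in libraries 9 to 12 minus that in libraries 5 to 8. For TGF-β1 in sterol synthesis, the difference was 0.97 for ACAT2, 1.68 for HMGCS1, 1.14 for MVK, 0.83 for IDI1, 1.47 for FDPS, 0.61 for FDFT1, 1.06 for SQLE, 1.11 for LSS, 0.57 for CYP51A1, 0.99 for TM7SF2, 1.25 for MSMO1, 1.53 for NSDHL, 1.23 for EBP and 0.64 for SC5D. Among regulators and the carrier it was 1.74 for SREBF1, 1.64 for INSIG1 and 1.25 for STARD4. In fatty acid synthesis, elongation and desaturation it was 0.61 for ACLY, 0.77 for ACACA, 0.57 for ME1, 0.81 for FADS1 and 1.09 for FADS2. Among genes that are no members it was -0.52 for UBXN8, -0.40 for AUP1, -0.54 for FAXDC2, -0.59 for CYP27A1, 1.47 for MID1IP1 and 1.14 for ACSL4.

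For FBS in sterol synthesis, the difference was 2.09 for ACAT2, 2.76 for HMGCS1, 1.83 for MVK, 0.51 for PMVK, 1.31 for IDI1, 2.68 for FDPS, 1.54 for FDFT1, 1.96 for SQLE, 1.82 for LSS, 1.25 for CYP51A1, 4.71 for TM7SF2, 2.12 for MSMO1, 2.17 for NSDHL, 1.39 for HSD17B7, 2.61 for EBP and 1.27 for SC5D. The PMVK difference was lost without serum-free libraries 8 or 11 or FBS libraries 6, 7, 10 or 12 (adjusted p = 0.0524 to 0.0974). Among regulators and the carrier the FBS difference was 2.61 for SREBF1, 0.62 for SREBF2, 2.56 for INSIG1 and 1.71 for STARD4. In fatty acid synthesis, elongation and desaturation it was 1.09 for ACLY, 1.93 for ACSS2, 0.40 for ACACA, 0.71 for ELOVL6, 0.96 for FADS1 and 1.97 for FADS2. Among genes that are no members it was 0.61 for INSIG2, -0.39 for AUP1, 0.61 for LPIN1, 0.82 for FAXDC2, 0.92 for NPC2, 1.12 for GRAMD1B, -0.86 for CAV1, -0.48 for RABGGTB, 1.04 for MID1IP1 and 1.28 for ACSL4. The serum-free libraries enter both treatments' differences.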

How the results depend on the processing

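Over 610 recomputed counts, 593 stayed within 1.5 times the count given above. With FBS in libraries 5 to 8, 5 members rose rather than 8 with DESeq2, with its size factors in edgeR, and with limma on log2(FPKM + 1) and log2(FPKM + 0.1), 13 with total library sizes and 15 with the set as an additive term. With total library sizes, TGF-β1 was lower than FBS for 6 members in libraries 9 to 12 and 2 in libraries 5 to 8. Without a term for the set, and with an additive one, the sets are averaged. Both gave 0 members falling with TGF-β1 in libraries 5 to 8, 7 falling with FBS in either set and 1 lower with TGF-β1 than FBS in libraries 9 to 12. Without the term 12 rose with FBS in libraries 9 to 12.

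Directions turned for some members. With total library sizes these were -0.16 for PMVK (TGF-β1, libraries 9 to 12), 0.26 for IDI1, 0.26 for CYP51A1, 0.28 for ACLY and 0.20 for FADS1 (FBS, libraries 5 to 8), -0.21 for ACAT2, -0.023 for HMGCS1, -0.061 for MVK, -0.14 for IDI1, -0.32 for FDPS, -0.19 for FDFT1, -0.21 for HSD17B7 and -0.22 for SREBF2 (TGF-β1 against FBS, libraries 9 to 12) and -0.23 for NSDHL and -0.019 for ACACA (the same, libraries 5 to 8). Without the set term they were -0.28 for TM7SF2 (TGF-β1, libraries 9 to 12), -0.14 for FDFT1, -0.67 for LSS, -0.043 for EBP, -0.86 for SREBF1, -1.50 for INSIG1 and -0.46 for FADS2 (FBS, libraries 9 to 12), 0.088 for MVK, 0.36 for IDI1, 0.53 for FDPS, 0.24 for SQLE, 0.48 for CYP51A1, 0.47 for ACLY and 0.35 for FADS1 (FBS, libraries 5 to 8), 0.21 for MSMO1 (TGF-β1 against FBS, libraries 9 to 12) and -0.11 for NSDHL (the same, libraries 5 to 8). With the additive term they were -0.14 for TM7SF2, -0.027 for FDFT1, -0.50 for LSS, -0.89 for SREBF1, -1.25 for INSIG1 and -0.53 for FADS2, 0.19 for MVK, 0.58 for IDI1, 0.79 for FDPS, 0.48 for SQLE, 0.60 for CYP51A1, 0.085 for EBP, 0.53 for ACLY and 0.37 for FADS1, 0.10 for MSMO1 and -0.19 for NSDHL, in the same order of comparisons. With no filter, FBS in libraries 5 to 8 gave 0.0084 for IDI1, 0.013 for CYP51A1 and 0.026 for ACLY. HMGCS1 with FBS in libraries 5 to 8 was -0.027 with DESeq2 or its size factors, -0.020 with limma on either FPKM scale and -0.012 with each set fitted alone. The FBS difference between the sets for ME1 was 0.014 with DESeq2 or its size factors, 0.020 and 0.022 with limma on log2(FPKM + 1) and log2(FPKM + 0.1), and 0.13 without FBS libraries 9 and 10, a choice made after seeing the data. Beyond the averaging of sets, the cause was not tested.

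Leaving out 1 library at a time gave 24 rising and 0 falling with TGF-β1 in libraries 9 to 12, 23 to 24 and 1 in libraries 5 to 8, 20 to 21 and 3 with FBS in libraries 9 to 12, and 6 to 8 and 12 in libraries 5 to 8. Values crossed 0 at -0.032 to 0.029 for ACLY, -0.037 to 0.024 for CYP51A1, -0.039 to 0.093 for HMGCS1 and -0.068 to 0.040 for IDI1 with FBS in libraries 5 to 8, -0.088 to 0.093 for PMVK with TGF-β1 in libraries 9 to 12 and -0.037 to 0.11 for FDPS for TGF-β1 against FBS there. ME1 ranged over -0.12 to 0.063 in the FBS difference and -0.042 to 0.15 between the serum-free sets. Library numbers were to count as pairs only if every correlation between same-numbered libraries was over 0.1. The correlations ran from -0.157 to 0.300, with 10 of 24 over 0.1, so the main fit used no pairing. The same-numbered library was the best match in 11 of 24 cases, so a partial pairing cannot be told from this rule. With a replicate block, 24 members rose and 0 fell with TGF-β1 in libraries 9 to 12, and 21 rose and 3 fell with FBS. For TGF-β1 against FBS there, 19 were higher and 3 lower. The block put the ME1 difference at 0.0015 and could not be fitted between the serum-free sets. With total library sizes, 35.4% rather than 48.5% of all called genes rose with TGF-β1 in libraries 9 to 12, 32.6% rather than 49.1% for TGF-β1 against FBS there, 32.1% rather than 50.3% in libraries 5 to 8, and 67.1% rather than 51.7% between the serum-free sets. The split was 32.9% rather than 43.9% in the TGF-β1 difference and 33.5% rather than 53.6% in the FBS difference.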

Other observations

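Of 15 tested genes of the isoprenoid branch, which leaves the pathway at farnesyl diphosphate, 10 rose and 2 fell with FBS in libraries 9 to 12 (38.9% and 40.2% of all genes, 79% in all), and 9 rose and 3 fell in libraries 5 to 8 (39.5% and 39.2%, 78.7% in all). The share called with FBS was near that of all genes. With TGF-β1, 4 rose and 3 fell in libraries 9 to 12 (29.8% and 31.5% of all genes, 61.3% in all), and 5 rose and 1 fell in libraries 5 to 8 (32.2% and 31.5%, 63.6% in all), a lower share than that of all genes. TGF-β1 against FBS was lower for 11 and higher for 2 in libraries 9 to 12 (36% and 34.7% of all genes), and lower for 8 and higher for 3 in libraries 5 to 8 (35.3% and 35.6%). PDSS1, a subunit of the enzyme that builds the ubiquinone tail, rose with FBS by 2.63 ± 0.17 in libraries 9 to 12 and by 3.13 ± 0.17 in libraries 5 to 8. PDSS2, its partner subunit, rose with FBS by 1.65 ± 0.13 and 1.60 ± 0.13 in the same sets. RABGGTB, a subunit of the transferase that lipidates Rab proteins, rose with FBS by 1.15 ± 0.08 and 1.63 ± 0.08, and with TGF-β1 by 0.78 ± 0.08 and 1.04 ± 0.08.

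Among 25 tested genes of fatty acid metabolism that are no members, 18 rose and 4 fell with TGF-β1 in libraries 9 to 12 (29.8% and 31.5% of all genes), and 17 rose and 4 fell in libraries 5 to 8 (32.2% and 31.5%). With FBS, 16 rose and 6 fell in libraries 9 to 12 (38.9% and 40.2% of all genes), and 15 rose and 7 fell in libraries 5 to 8 (39.5% and 39.2%). MID1IP1, a regulator of acetyl-CoA carboxylase, rose with TGF-β1 by 4.30 ± 0.23 in libraries 9 to 12 and by 2.82 ± 0.22 in libraries 5 to 8, and with FBS by 3.52 ± 0.23 and 2.48 ± 0.22. ACSL4, which activates long-chain polyunsaturated fatty acids, rose with TGF-β1 by 3.09 ± 0.11 and 1.95 ± 0.11, and with FBS by 3.07 ± 0.11 and 1.79 ± 0.10.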
